A study of Mus musculus with 6 samples.

Results

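Ccl5 (RANTES) is a chemokine gene, and its messenger RNA was followed through the lymphocytes of mouse blood, cell by cell and library by library. It is 1 of the 31253 genes in the count matrices and was picked by its symbol. It was chosen because earlier results of these data showed it to move between the groups, so its levels and differences are given as a description, with no test. The gene lies on the minus strand of chromosome 11, from 83525778 to 83530518 (build GRCm38, the assembly also called mm10), and no other annotated gene overlaps it.

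The Con group was male mice of 12 to 13 weeks injected intraperitoneally with saline, and the T2D group was male mice of the same age injected intraperitoneally with STZ (streptozotocin, a toxin of insulin-producing beta cells). The series title adds a high-fat diet (HFD) to the STZ as the model of type 2 diabetes. Neither the Con diet nor the strain or STZ dose is given in these sources. Each group held 3 libraries of peripheral blood mononuclear cells, and it is not stated whether each came from 1 mouse or from pooled mice. P-values here therefore reflect library-to-library variation, part of which could be technical. Libraries were made with the BD Rhapsody whole-transcriptome system, in which beads in microwells give each RNA molecule a cell label and a unique molecular identifier (UMI).

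CCL5 protein draws T cells, monocytes and eosinophils towards sites of inflammation through receptors such as CCR1 and CCR3. Resting naive T cells and B cells carry little of its message, whereas effector and memory CD8 T cells and natural killer (NK) cells hold a standing store of it and release the protein soon after they are triggered. Its level in blood therefore depends both on how many cytotoxic and memory lymphocytes there are and on how much message each of them holds.

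After the quality filter, 49025 cells were kept, 7339 to 8997 in each library. Median depth ran from 2814 to 3244 UMIs in a cell, and the libraries totalled 23574052 to 32321855 UMIs. Cells were sorted in silico into 15 lymphocyte gates and several gates of other blood cells by counts of lineage marker UMIs, and Ccl5 entered no gate. The gates held their defining markers: Ms4a1 (the B cell surface protein CD20) was found in 92.8% of B cells, Cd3e (a T cell receptor subunit) in 90.5% of naive CD4 T cells, and Ncr1 (an NK receptor) in 90.0% of NK cells. The regulatory T gate was weaker, with Foxp3, the factor that defines these cells, found in 28.6% of its cells. Of the kept cells, 1555 held markers of more than 1 lineage and 6807 held too few markers to be placed, and these were left out of every lymphocyte gate. Cell labels that occurred in more than 1 library numbered 1100 and covered 2210 cells (4.51%).

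Ccl5 message was held by few cells in large amounts. Over all kept cells there were 194936 Ccl5 UMIs, while 38351 cells had none, 4872 had 1 and 5802 had 2 or more. The 4689 cells with 5 or more UMIs, called Ccl5-high cells here, had a median of 32 UMIs each. That class is a range and not a cell type: 410 cells had 3 or 4 UMIs, just under the threshold, and 217 had 5 or 6, just over it. Ccl5-high cells held 95.2% ± 0.602 of a library's Ccl5 UMIs in Con and 96.3% ± 0.639 in T2D (mean ± SD, n = 3 libraries), and cells with a single UMI held 3.12% ± 0.519 and 2.34% ± 0.472. Single UMIs lay in about as many cells as there were Ccl5-high cells, but made up a small share of the message.

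The Ccl5 level of the whole library, as CPM (UMIs of the gene scaled to a common library total), was 669.8, 662.3 and 648.4 in Con 1, 2 and 3 and 2047, 1393 and 1347 in T2D 1, 2 and 3. The groups did not overlap, and T2D 1 stood highest. Ccl5-high cells made up 5.49%, 6.40% and 6.88% of the Con libraries and 13.6%, 11.3% and 12.6% of the T2D libraries. Their median content differed less, at 32, 27 and 26 UMIs in Con and 41, 35 and 30 in T2D, and these ranges overlapped. Fewer cells of a type and less RNA per cell can be told apart here only through such gates and counts per cell.

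Ccl5 level differed widely among the lymphocyte gates. Effector CD8 T cells (T cells with CD8 transcripts and at least 3 UMIs of granzyme, killer-lectin receptor or Cx3cr1 genes) had the highest mean over both groups, 13180 ± 2746 CPM (SD, n = 6 libraries). NK cells followed at 11953 ± 1819, effector T cells without CD4 or CD8 transcripts at 10018 ± 680, effector CD4 T cells at 8625 ± 6631 and gamma-delta T cells at 6439 ± 931. The effector CD4 gate rested on 94 cells, with 3 to 38 per library, which goes with its wide spread. Of these cells, 17 (18.1%) had a high doublet score, and NK markers were found in 39.4%. Effector CD8 T and NK cells did not differ beyond the spread of their within-library difference (log2 difference 0.13 ± 0.20 SD), and their order turned between the groups: 11333 CPM in effector CD8 T and 11450 in NK cells of Con, 15027 and 12456 in T2D. By contrast, NK cells stood above effector T cells without CD4 or CD8 in all 6 libraries (0.24 ± 0.15). However, NK markers were found in 79.1% of these effector T cells and gamma-delta transcripts in 49.5%, so the gate is not a clean T cell subset.

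Intermediate levels were found in 4 gates of T cells. Memory-like CD8 T cells, which had CD8 transcripts but met neither the naive nor the effector criteria, had 1738 ± 209 CPM, and gamma-delta T cells were above them in all 6 libraries. T cells whose CD4 and CD8 transcripts or markers decided no subset had 1526 ± 596 CPM, memory CD4 T cells 635 ± 313 and regulatory T cells 607 ± 401. T cells of uncalled subset stood above memory CD4 T cells in all 6 libraries (log2 difference 1.33 ± 0.59). Transcripts of naive cells were found in 97.0% of T cells of uncalled subset and 93.1% of memory CD4 T cells, at medians of 16 and 9 UMIs. Memory CD4 T and regulatory T cells did not differ beyond their spread (log2 difference 0.20 ± 1.18).

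The lowest levels were those of naive CD8 T cells at 43.3 ± 14.3 CPM, mature B cells at 40.5 ± 17.9, transitional B cells (recent emigrants from the bone marrow) at 40.6 ± 19.4, naive CD4 T cells at 37.6 ± 16.3 and innate-like B cells at 35.8 ± 15.5. None of these neighbours differed beyond the spread of the difference within libraries. The step down from regulatory T to naive CD8 T cells was 3.55 ± 1.07 on the log2 scale and was present in all 6 libraries. Plasmablasts (148 cells, 13 to 47 per library) were left out of this order. They had 0 to 24.7 CPM in Con and 51.8 to 137 CPM in T2D.

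**Figure D1:**
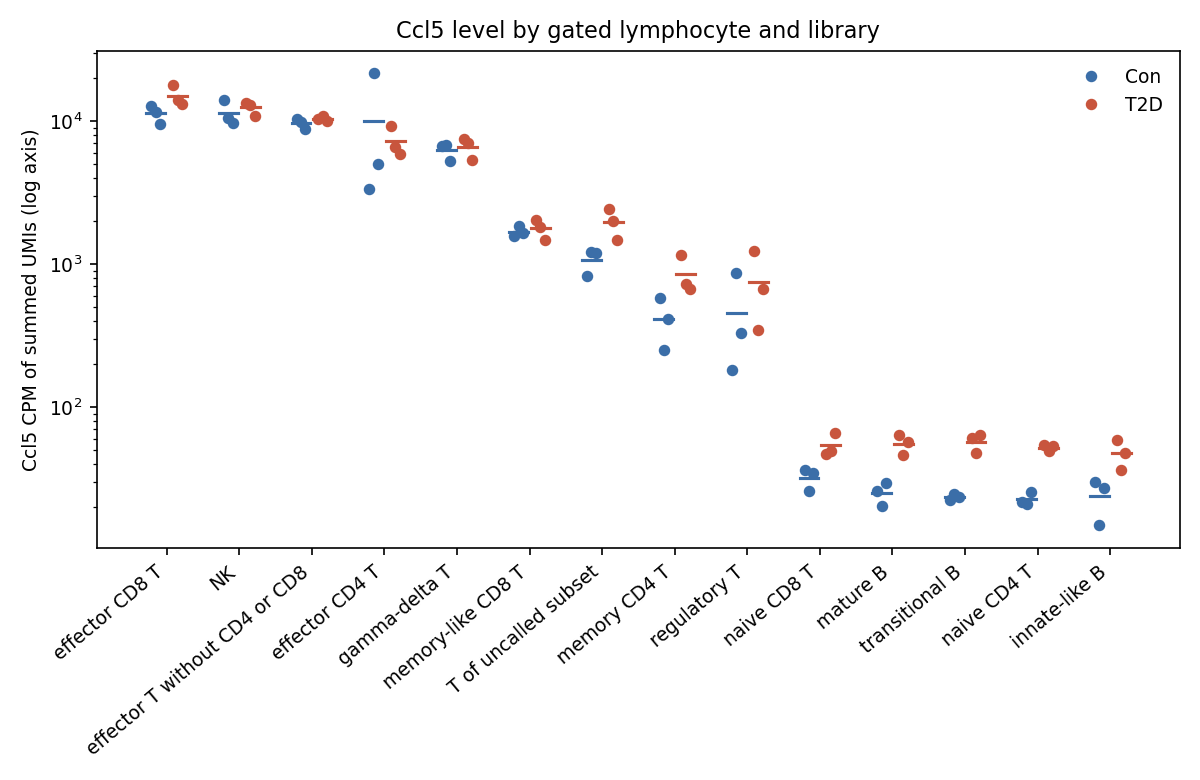
Ccl5 level (CPM of summed UMIs, log axis) in each of 14 lymphocyte gates, ordered by the mean log2 level over 6 libraries; each point is a library, Con in blue and T2D in red, and bars are group means. The lowest 5 gates lie together, with the Con libraries below the T2D libraries in each, while Con and T2D overlap in NK and memory-like CD8 T cells.

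Nearly every effector CD8 T and NK cell was Ccl5-high. Of 930 effector CD8 T cells, 906 had 5 or more UMIs, 13 had none, and the highest count in a cell was 250. Of 904 NK cells, 877 were Ccl5-high and 4 had none. Only 4 effector CD8 T cells and 6 NK cells had 3 or 4 UMIs, so in both gates few cells lay near the threshold. Of 122 gamma-delta T cells, 87 were Ccl5-high and 27 had no UMI, so this gate was split between cells with and without the message.

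The memory-like CD8 gate was split most clearly. Of 3453 cells, 1697 had no Ccl5 UMI and 1128 had 5 or more, with a median of 20 UMIs among the latter. If the gate's UMIs had been spread over its cells by depth alone, 3374 cells would have held 2 or more, and 1371 did. Near the threshold lay 133 cells with 3 or 4 UMIs and 90 with 5 or 6. Transcripts of naive cells were found in 99.0% of this gate's cells, at a median of 17 UMIs. That median was 20 in naive CD8 T cells and 2 in effector CD8 T cells. Effector transcripts, any of which kept a cell out of the naive gate, were found in 28.9% of the memory-like CD8 gate. The split may therefore lie in part between naive and memory cells, which was not tested. Memory CD4 T cells, with 1017 cells, had 83 Ccl5-high cells and 778 with none, and 124 cells with 2 or more against 653.1 under an even spread. Regulatory T cells had 26 Ccl5-high cells of 315.

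**Figure D2:**
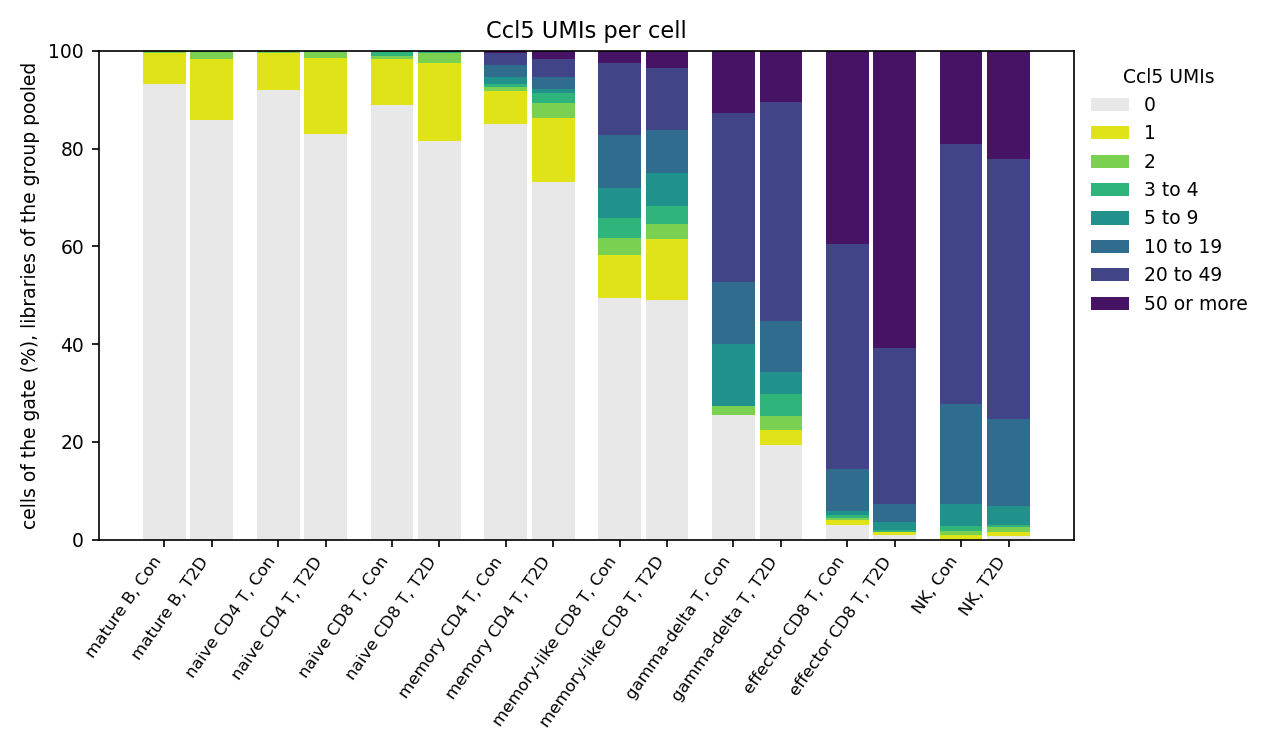
Share of cells (%) by number of Ccl5 UMIs in 8 gates, with the 3 libraries of each group pooled (left bar Con, right bar T2D). B and naive T cells hold 0 or 1 UMI in nearly all cells, effector CD8 T and NK cells mostly 20 or more, and memory-like CD8 T cells are divided between 0 and 5 or more in both groups.

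Within the memory-like CD8 gate, cells with and without Ccl5 carried different transcripts. Each cell was thinned to 1000 UMIs (by expectation) and the 1124 Ccl5-high cells were set beside the 1672 cells with no Ccl5 UMI. Among genes that go with memory, Il2rb (a subunit of the receptors for interleukins that maintain memory cells) was found in 64.7% of the former and 30.5% of the latter. Ly6c2, a surface protein of memory CD8 cells, was found in 85.0% and 54.0%. Cd44, the adhesion receptor used to define antigen-experienced T cells, was found in 22.4% and 5.09%, and Cxcr3, a homing receptor, in 13.2% and 2.66%. Id2, Icos and Maf, also on the memory list, were not found more often with Ccl5: Id2 was found in 16.97% and 17.5%, Icos in 5.08% and 7.14%, and Maf in 0.701% and 0.906%. For Il2rb, Ly6c2, Cd44 and Cxcr3 the lowest library among Ccl5-high cells was above the highest library among cells without Ccl5.

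Genes of naive cells ran the other way. Igfbp4 was found in 2.76% of Ccl5-high and 32.6% of Ccl5-free memory-like CD8 T cells, Dapl1 in 4.87% and 17.6%, and Ccr7, which guides T cells into lymph nodes, in 25.5% and 40.9%. Runx3, a factor of the CD8 lineage, was found in 21.1% and 18.98%, with overlapping libraries, and Klrd1, an NK receptor subunit, in 36.3% and 30.8%. These genes were shown after their values had been seen, the memory and naive genes also drew the border of the gate, and no test was made.

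**Figure D3:**
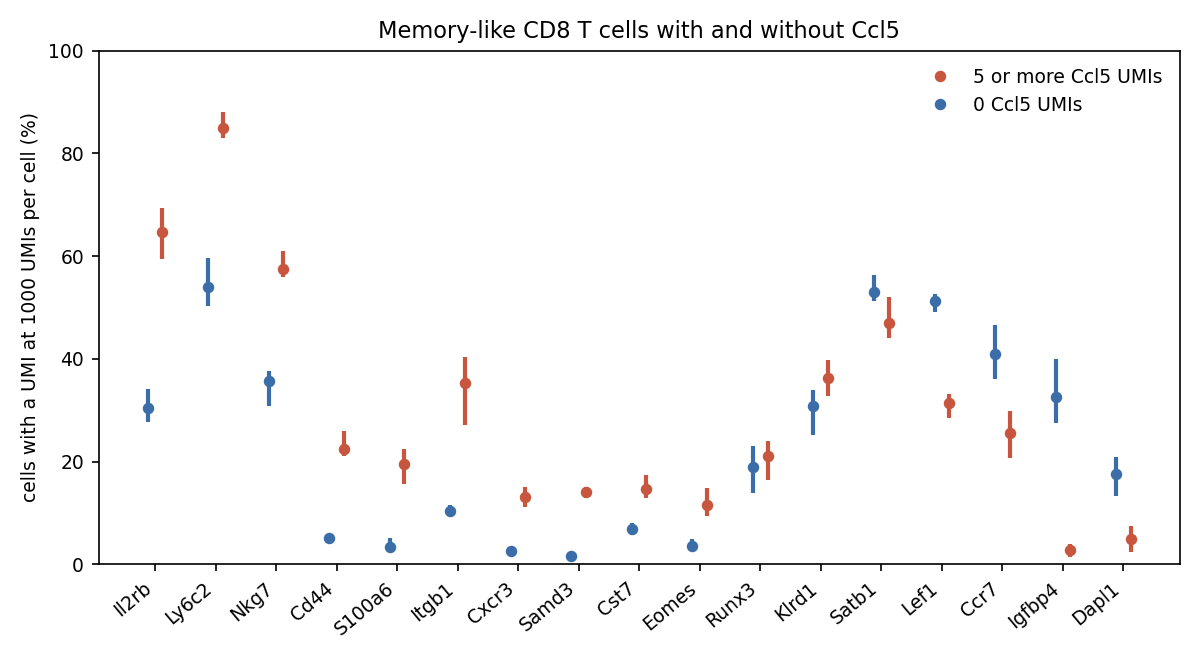
Share of memory-like CD8 T cells (%) with a UMI of each of 17 genes at 1000 UMIs per cell, for cells with 5 or more Ccl5 UMIs (red) and with none (blue); points are all cells pooled and lines span the lowest to the highest of 6 libraries. Il2rb, Ly6c2, Cd44 and Cxcr3 are found more often with Ccl5, Igfbp4, Dapl1 and Ccr7 less often, and the Runx3 lines overlap.

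In the 83 Ccl5-high memory CD4 T cells, Nkg7, which encodes a protein of cytotoxic granules, was found in 58.5% at 1000 UMIs, against 3.36% of the cells without Ccl5. Ly6c2 was found in 40.4% and 4.42%, and Ccr7 in 4.66% and 26.3%. In the regulatory T gate, Foxp3 was found in 2.05% of the 26 Ccl5-high cells and 14.4% of the 221 without Ccl5, and Nkg7 in 53.5% and 5.09%. With 26 cells, single libraries ranged widely (Nkg7 34.9% to 71.9% among Ccl5-high cells).

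Over 21 gates, lymphocyte and other, the genes whose levels ran most like Ccl5 were found by Pearson's r of log2(CPM + 10), each gate taken as its mean over the libraries, among 6738 genes with at least 50 CPM in a gate. Samd3 came first (r = 0.96), followed by Eomes, a factor of memory and NK cells (0.95), Klrc1 (0.93), Il2rb (0.93), Nkg7 (0.93), Rgs3 (0.93), Ifitm10 (0.92), Sytl2 (0.92), Abcb1a (0.91) and Cst7, an inhibitor of granule proteases (0.91). Eomes, Klrc1 and Il2rb were used to draw gates, so their likeness is in part built in. These values are across 21 gates that share libraries and depth, and carry no test.

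In effector CD8 T cells the Ccl5 level was 12768, 11654 and 9576 CPM in Con 1, 2 and 3 and 17796, 14132 and 13152 CPM in T2D 1, 2 and 3. All T2D libraries were above all Con libraries, the lowest T2D library by a small margin, with a log2 fold change of 0.39 ± 0.11 (T2D over Con, SE). The median cell held 49.5, 40.5 and 38.5 UMIs in Con and 64.5, 56 and 51 in T2D, at like depths (median 3833 and 3798 UMIs per cell). Cells with 50 or more UMIs made up 39.6% of the pooled Con cells and 60.9% of the pooled T2D cells.

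In NK cells the level was 14134, 10559 and 9655 CPM in Con and 13430, 13061 and 10878 CPM in T2D. The groups overlapped, and the log2 fold change was 0.12 ± 0.17. The median NK cell held 27 to 36 UMIs in Con and 27 to 34 in T2D. In memory-like CD8 T cells the level was 1574, 1847 and 1646 CPM in Con and 2051, 1828 and 1485 CPM in T2D, which also overlapped (0.05 ± 0.12). Their share of Ccl5-high cells was 34.1% ± 4.74 in Con and 31.6% ± 2.4 in T2D. Gamma-delta T cells overlapped as well, at 5223 to 6807 CPM and 5343 to 7463 CPM.

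In memory CD4 T cells the level was 582.3, 249.8 and 410.9 CPM in Con and 1162, 730.1 and 675.7 CPM in T2D. These did not overlap, although the gate held only 75 to 117 cells per Con library, and the log2 fold change was 0.97 ± 0.41. Ccl5-high cells were 6.82% ± 1.19 of the gate in Con and 8.84% ± 2.45 in T2D, with overlapping libraries. Cells with at least 1 UMI were 14.1% ± 5.78 and 26.7% ± 3.76, without overlap. T cells of uncalled subset had 820.5 to 1217 CPM in Con and 1480 to 2448 CPM in T2D (0.81 ± 0.28), and their Ccl5-high share was 12.1% ± 2.72 and 18.4% ± 2.51, without overlap.

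B cells were the largest population and almost none was Ccl5-high. Of 23218 B cells, 20777 had no Ccl5 UMI, 2186 had 1, 255 had 2 or more and 6 had 5 or more, the highest count being 11. Of 3277 naive CD4 T cells, 393 had 1 UMI, 33 had 2 or more and 1 was Ccl5-high. Of 1771 naive CD8 T cells, 226 had 1 UMI, 36 had 2 or more and 3 were Ccl5-high. In Con no naive T cell was Ccl5-high: 0 of 1496 naive CD4 T cells, which allows a share of up to 0.2005%, and 0 of 868 naive CD8 T cells, which allows up to 0.346%, both for counting error only. The naive gates took only cells without any UMI of the granzyme, killer-lectin receptor or Cx3cr1 genes. Memory UMIs were at most 20% of memory and naive UMIs together. Cells with effector transcripts were thus left out beforehand, and the low counts are in part built in.

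The share of B cells with any Ccl5 UMI was 7.18% (95% exact binomial interval 6.40% to 8.03%, which covers counting error only) in Con 1, 5.35% (4.67% to 6.10%) in Con 2 and 8.12% (7.33% to 8.96%) in Con 3. It was 15.5% (14.4% to 16.7%) in T2D 1, 12.4% (11.3% to 13.5%) in T2D 2 and 15.9% (14.7% to 17.3%) in T2D 3. Every T2D library was above every Con library, and the median B cell had nearly the same depth (2772 and 2840 UMIs). Thinned to 1000 UMIs, which left out 214 shallower cells (127 Con, 87 T2D), the shares were 2.52% ± 0.458 and 5.38% ± 0.838.

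Naive T cells gave like values. Thinned shares with a Ccl5 UMI were 2.24% ± 0.354 (Con) and 5.15% ± 0.423 (T2D) in naive CD4 T cells, and 2.95% ± 0.726 and 5.12% ± 0.977 in naive CD8 T cells. Unthinned, they were 8.0% ± 1.19 and 17.0% ± 1.20 in naive CD4 T cells and 11.1% ± 3.45 and 18.7% ± 3.08 in naive CD8 T cells, at median depths of 3596 and 4199 UMIs over all cells. Classical monocytes, which belong to another lineage, had thinned shares of 3.08% ± 0.633 and 5.46% ± 0.932, and unthinned shares of 16.2% ± 1.27 and 29.0% ± 3.22 at a median depth of 7881 UMIs. The mean thinned shares of B and naive T cells were no higher than those of monocytes in either group. Monocytes are not a known reference without Ccl5, as 9 of 1140 had 5 or more UMIs. The shares are therefore read neither as expression nor as its absence, and where these UMIs came from was not tested.

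In B cells the level was higher in every T2D library than in every Con library, as it was in the whole libraries. Ccl5 stood at 25.4, 20.95 and 28.3 CPM in the B cells of Con 1, 2 and 3 and at 62.9, 46.5 and 58.2 CPM in T2D 1, 2 and 3, a log2 fold change of 1.14 ± 0.13, where the whole library gave 1.24 ± 0.18. Within a group the 2 orders differed: Con 3, the lowest Con library as a whole, had the highest Con B cell level. As a share of the level of the same library this was 3.78% ± 0.604 in Con and 3.58% ± 0.657 in T2D, and the libraries overlapped. Naive CD4 T cells had 3.47% ± 0.431 and 3.38% ± 0.662, and naive CD8 T cells 4.88% ± 0.842 and 3.60% ± 1.32. The log2 fold change was 1.13 ± 0.16 in naive CD4 T cells and 0.69 ± 0.19 in naive CD8 T cells.

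Genes made by T, NK and neutrophil cells stood in B cells at 3.81% to 7.03% of their library level, as group means. Nkg7 stood at 4.41% ± 1.61 of its library level in Con B cells and 5.03% ± 0.415 in T2D, Gzma (granzyme A, a protease of killer cells) at 4.82% ± 1.19 and 4.35% ± 0.325, and Cd8b1 (a CD8 chain) at 3.81% ± 0.650 and 3.87% ± 0.588. Ncr1 stood at 4.92% ± 0.477 and 4.0% ± 0.202. The neutrophil genes S100a8 and Retnlg stood at 5.15% ± 1.27 and 5.37% ± 0.283, and at 5.43% ± 0.885 and 4.35% ± 0.871. Klrd1 was somewhat higher at 7.03% ± 1.36 and 6.92% ± 0.672. The platelet genes Pf4 and Ppbp stood apart, at 18.1% ± 3.83 and 22.8% ± 3.55, and at 13.3% ± 1.10 and 16.9% ± 4.42. The B gate limited UMIs of T, NK and myeloid markers, Ncr1 and Retnlg among them, but not those of platelet markers. The low values of Ncr1 and Retnlg and the distance of the platelet genes are therefore in part built in.

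**Figure D4:**
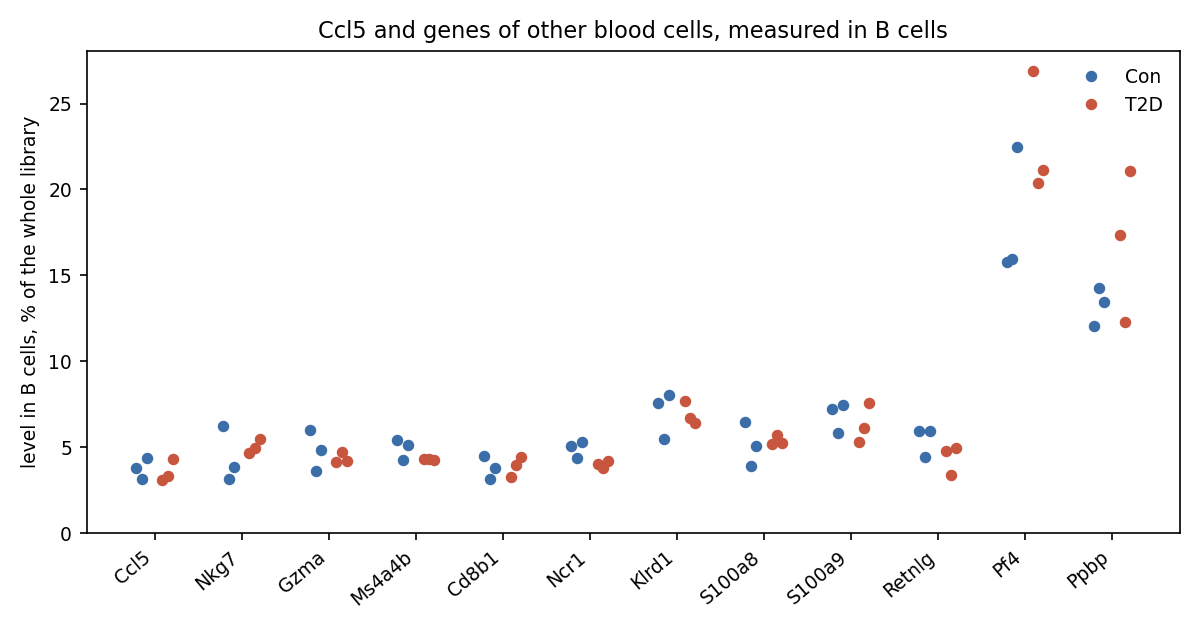
Level in B cells as a percentage of the level over all cells of the same library, for Ccl5 and 11 genes of T, NK, neutrophil or platelet cells; each point is a library (Con blue, T2D red). Ccl5 lies between 3.07% and 4.37% in all 6 libraries. It lies within or below the values of the T, NK and neutrophil genes and below those of the platelet genes Pf4 and Ppbp. Ncr1 and Retnlg were limited by the B gate itself, and the platelet genes were not.

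The counts per B cell were close to an even spread but not identical to it. Had the Ccl5 UMIs of each library fallen on its B cells by depth alone, 194.3 B cells would have held 2 or more, and 255 did, a ratio of 1.31 over all libraries with 1.04 to 2.50 in single ones. In naive CD4 T cells the numbers were 35.96 and 33, and in naive CD8 T cells 29.75 and 36. By contrast, the memory-like CD8 and memory CD4 gates had far fewer such cells than an even spread gives.

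B cells with and without Ccl5 were compared for transcripts of other lineages, at 1000 UMIs per cell. Of 2441 and 20777 such cells, 11 and 203 had fewer UMIs than that and were left out. T cell transcripts were found in 20.5% ± 3.59 and 19.1% ± 3.48 of them, higher with Ccl5 in 4 of 6 libraries. Cytotoxic transcripts were found in 5.57% ± 2.60 and 4.70% ± 1.57, also higher in 4 of 6, platelet transcripts in 2.12% ± 0.873 and 2.14% ± 0.442, and myeloid transcripts in 17.5% ± 5.96 and 16.8% ± 5.86. No list passed a two-sided exact sign-flip permutation test over the 6 libraries (p = 0.125, 0.1875, 1.0 and 0.4375; adjusted over the 4 lists, 0.375, 0.375, 1.0 and 0.583), for which the smallest possible p is 0.03125. Once adjusted over the 4 lists, 1 list alone at that smallest p could not have passed 0.05. The test therefore cannot decide whether B cells with Ccl5 carry more of these transcripts. Over single libraries the difference ran from -0.406 to 3.34 percentage points for T transcripts and from -0.464 to 2.66 for cytotoxic ones. Of 99 B cells whose cell label also belonged to a Ccl5-high cell of another library, 10 had a Ccl5 UMI (10.1%, 95% exact interval 4.95% to 17.8%), against 10.5% of the other B cells.

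T and NK transcripts as a list were tested in B cells between the groups with edgeR's quasi-likelihood test, Benjamini-Hochberg adjusted over the 11559 genes tested, of which 103 were called higher in T2D (0.891%). Of 21 listed genes 19 passed the filter on low counts; 7 were called higher and none lower (DESeq2 also called 7 and none, though not Cd8a, whose adjusted p was 0.0766; at an unadjusted edgeR p under 0.05, 15 and 0), and 18 had a positive log2 fold change, with a median of 0.56 against -0.002 over all genes. The 7 were Il7r (0.74 ± 0.12, edgeR adjusted p = 0.00588), Cd8b1 (0.69 ± 0.14, 0.0182), Nkg7 (0.98 ± 0.19, 0.0201), Lat (0.54 ± 0.12, 0.0321), Tcf7 (0.47 ± 0.11, 0.0376), Cd8a (0.60 ± 0.15, 0.0412) and Gzmb (1.09 ± 0.26, 0.0453). Only Il7r kept its call whichever library was left out. Under a stricter lineage gate the calls of Cd8b1, Cd8a, Gzmb and Tcf7 were lost (edgeR adjusted p 0.0630 to 0.157). In the whole library the same genes had log2 fold changes of 0.54, 0.66, 0.78, 0.57, 0.25, 0.51 and 1.35, and how far the change in the whole library bears on the B cells was not tested.

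Most gates of high Ccl5 level, though not gamma-delta T cells, made up more of the T2D libraries. Shares of cells were tested over 23 gates with edgeR's quasi-likelihood test and Benjamini-Hochberg adjustment, and 9 gates were called higher in T2D and none lower (2 were lower at an unadjusted p under 0.05, mature B cells and eosinophils). Effector CD8 T cells were 0.875% ± 0.0529 of Con cells and 2.79% ± 0.393 of T2D cells (log2 1.67 ± 0.17, edgeR adjusted p = 0.000818), and this call held without any 1 of the 6 libraries. NK cells were 1.25% ± 0.0666 and 2.38% ± 0.479 (0.92 ± 0.19, edgeR adjusted p = 0.0193), and memory CD4 T cells 1.22% ± 0.226 and 2.85% ± 0.601 (1.23 ± 0.22, edgeR adjusted p = 0.0138). In all 3 gates every T2D library was above every Con library. A single effector UMI was enough to move a cell from the naive to the memory CD4 or memory-like CD8 gate. Effector transcripts were found in 47.8% of memory CD4 T cells, 28.9% of memory-like CD8 T cells and 7.43% of B cells. How far such UMIs moved the shares of these gates was not tested.

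Effector CD4 T cells (2.09 ± 0.52, edgeR adjusted p = 0.0290), effector T cells without CD4 or CD8 (1.17 ± 0.28, 0.0290), regulatory T cells (1.77 ± 0.53, 0.0442), memory-like CD8 T cells (0.52 ± 0.16, 0.0442), T cells of uncalled subset (0.66 ± 0.19, 0.0442) and plasmablasts (1.22 ± 0.38, 0.0442) were the other gates called. The NK call was lost without Con 1 or Con 2, the memory CD4 call without Con 1, and the calls of the gates in this paragraph each without at least 2 libraries. Of the 94 effector CD4 T cells counted, 17 had a high doublet score. Cd4 was found in 33.1% of the plasmablast gate and regulatory T transcripts in 52.7%, against 2.77% and 2.02% of B cells. Median depths were 11128 UMIs in plasmablasts and 2801 in B cells. Whether the plasmablast gate holds other cell types was not tested. Naive CD4 T (0.09 ± 0.19), naive CD8 T (-0.12 ± 0.14) and gamma-delta T cells (0.12 ± 0.23) were not called. Mature B cells were 44.6% ± 1.06 of Con and 33.6% ± 2.91 of T2D cells (-0.41 ± 0.14, edgeR adjusted p = 0.0503). Shares sum to a fixed total, so a rise in some gates lowers others. A two-sided exact permutation test of 3 against 3 libraries cannot go below 0.1, the value reached by each called gate.

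**Figure D5:**
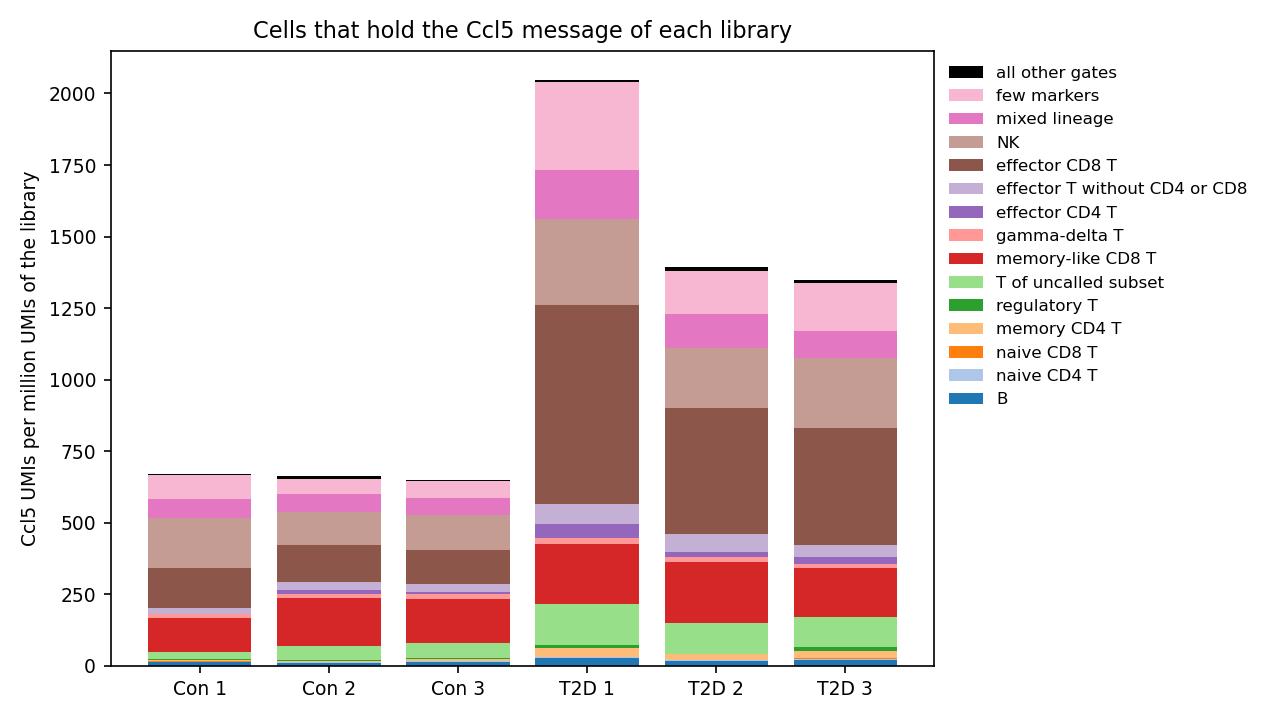
Ccl5 level of each library (CPM), divided by the gate of the cell that held them (stacked bars from 0). The bars of T2D 1, 2 and 3 are taller than those of Con, the effector CD8 T part is taller in each T2D library than in any Con library, and the parts held by B cells are thin in all 6 libraries.

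Of a library's Ccl5 UMIs, effector CD8 T cells held 19.7% ± 1.13 in Con and 32% ± 1.75 in T2D, without overlap. NK cells held 20.7% ± 4.70 and 15.9% ± 1.91, memory-like CD8 T cells 22.1% ± 4.04 and 12.8% ± 2.54, and gamma-delta T cells 2.45% ± 0.324 and 1.21% ± 0.195. Effector T and NK cells together held 47.6% ± 3.87 and 54.6% ± 0.835, which became 27.1% and 31.8% with a lineage gate of 95% in place of 85%. All B cells together held 1.82% ± 0.331 and 1.29% ± 0.134. Cells of mixed lineage held 9.56% ± 0.457 and 7.92% ± 0.867, and cells with few markers 10.1% ± 2.50 and 12.8% ± 2.11; these cells were placed in no gate. Each gate's share of the library's UMIs was also put together with its Ccl5 level. The T2D shares of UMIs with the Con levels gave 1162 CPM, and the Con shares with the T2D levels gave 963.0 CPM. Computed the same way, Con gave 662.8 CPM and T2D 1593 CPM. These are shares of UMIs and not of cells, so they also carry the depth of each gate's cells.

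Genes around CCL5 were tested from a list of 26: receptors, surface binding partners, cytokines and chemokines of effector cells, and transcription factors linked to its promoter or to the effector programme. In 8 gates with enough cells, 11 pairs of gene and gate were called, over 11 to 22 listed genes tested per gate. None was called in naive CD4 T cells (13 tested, background 1.82% of genes called), memory CD4 T cells (11 tested, 1.36%) or NK cells (19 tested, 0.199%) by edgeR, nor by DESeq2. At an unadjusted edgeR p under 0.05, 1 was higher and 2 lower in naive CD4 T cells, 2 and 1 in memory CD4 T cells, and 3 and 5 in NK cells. In B cells 2 of 22 were called (background 1.70%), in naive CD8 T cells 2 of 13 (1.16%), in memory-like CD8 T cells 2 of 20 (0.783%), in effector CD8 T cells 1 of 18 (0.427%) and in T cells of uncalled subset 4 of 18 (2.33%). The list's median log2 fold change lay between -0.07 and 0.28 in the 8 gates, against -0.005 to 0.001 over all genes of each gate.

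Among receptors, Ccr1 and Ccr3 and the scavenger receptor Ackr2 were at or under 3 CPM in B cells (Ccr1 2.62 and 1.93 CPM, Ccr3 0.779 and 0.543, Ackr2 1.08 and 1.31), with no call. These 3 passed the filter in no other gate, and Gpr75, a further receptor, passed it in none.

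Among other chemokines and cytokines, Ifng (interferon gamma) rose in T cells of uncalled subset (4.97 ± 4.63 and 17.5 ± 2.70 CPM, 1.65 ± 0.42, edgeR adjusted p = 0.0275). In NK cells it had 241 ± 32.9 and 150 ± 30.6 CPM (-0.70 ± 0.17, edgeR adjusted p = 0.0755). Ccl3 and Ccl4, neighbouring members of the same chemokine family, had 1053 ± 223 and 800 ± 165 CPM, and 1231 ± 382 and 1109 ± 117 CPM, in NK cells, without a call in any gate. Xcl1, a chemokine of NK and CD8 T cells, had 41.5 ± 8.94 and 15.9 ± 2.61 CPM in effector CD8 T cells (-1.37 ± 0.36, edgeR adjusted p = 0.0623). Neither Ifng in NK cells nor Xcl1 in effector CD8 T cells passed the threshold.

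Among transcription factors, Runx3 was called higher in 3 gates. It rose from 163.6, 171.3 and 183.7 CPM to 250.4, 267.7 and 263.0 CPM in memory-like CD8 T cells (0.55 ± 0.08, edgeR adjusted p = 6.5e-05), in naive CD8 T cells (0.46 ± 0.10, 0.00192) and in B cells (0.43 ± 0.07, 0.00249). Irf1, a factor induced by interferons, rose in memory-like CD8 T cells (0.46 ± 0.09, edgeR adjusted p = 0.00387), naive CD8 T cells (0.44 ± 0.10, 0.00653) and T cells of uncalled subset (0.46 ± 0.10, 0.00693). Eomes fell in effector CD8 T cells from 211 ± 15.3 to 135 ± 25.0 CPM (-0.67 ± 0.16, edgeR adjusted p = 0.0344), a call that DESeq2 did not make (-0.68, adjusted p = 0.0987). Klf13, a factor that acts on the Ccl5 promoter late after T cell activation, fell in T cells of uncalled subset (-0.29 ± 0.08, edgeR adjusted p = 0.0414), and Rel, a subunit of NF-kB, fell in B cells (-0.33 ± 0.06, 0.00975).

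Without 1 library, the calls of Runx3 and Irf1 in memory-like CD8 T cells and of Runx3 in B cells held in all 6 cases. Runx3 in naive CD8 T cells was lost without T2D 2, Rel without Con 2, Irf1 in naive CD8 T cells and in T cells of uncalled subset without Con 2 or T2D 1, and Eomes, Klf13 and Ifng without any of 4 or 5 libraries. DESeq2 also did not call Irf1 in naive CD8 T cells (adjusted p = 0.0645) or Klf13 (0.0657). With a stricter lineage gate (95% of lineage UMIs from 1 lineage in place of 85%), the edgeR calls in T cells of uncalled subset were all lost, Ifng among them (log2 1.60, adjusted p = 0.148), as were those of Runx3 in naive CD8 T cells (0.39, 0.0817) and Eomes (-0.80, 0.106). In memory-like CD8 T cells Runx3 and Irf1 were called higher in T2D, while the Ccl5 level of the same cells overlapped between the groups.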

How the data were processed

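The deposited matrices hold raw UMI counts per gene and cell, per the file headers and values. Per the submitters' processing notes, the build was mm10 and CASAVA 1.8, UMI-tools and Seurat were used; no aligner or annotation is named in these sources. Of 49407 barcodes, 49025 passed a minimum of 200 genes and a mitochondrial share of up to 20%. Gates used fixed marker lists; thresholds (at least 8 B, 5 T or 5 NK UMIs, 85% of lineage UMIs from 1 lineage) were set on the marker counts. Cells of mixed lineage were left out; 2447 cells of high doublet score were left out only as an alternative.

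Ccl5 and all gene lists were chosen with earlier results of these data known. Listed genes past the threshold, and receptors, were named, except that some results are not reported here; counts over a list include all its genes. Some non-member genes (memory and naive markers, cytokines) were named after their values had been seen. Counts were summed per library and gate (at least 30 cells in each library) and fitted with edgeR 4.0.16 in R 4.3.3 (TMM, filterByExpr, quasi-likelihood, Benjamini-Hochberg, threshold 0.05), tested on simulated data. Thinned shares are hypergeometric expectations (Python 3.11.15, scipy 1.17.1). Alternatives were DESeq2 1.42.0, other size factors, no filter, stricter gates, deeper cells, doublets left out and each library left out. No 2 libraries were duplicates (lowest chi-square per degree of freedom 9.43).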

Additional observations from a re-analysis of the deposited data

Results flagged for a closer look

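Some genes of the list were higher in every T2D library than in every Con library of one gate, and lower in every T2D library in another gate; the difference between gates was not tested, and Ifng in T cells of uncalled subset alone passed edgeR's threshold. Cd44, which encodes an adhesion receptor, had a log2 fold change (T2D over Con) of -0.28 in naive CD4 T cells and 0.39 in memory CD4 T cells (edgeR adjusted p = 0.481 and 0.201); Cd44 was among the transcripts used to tell naive from memory cells. Ifng had 0.71 in memory CD4 T cells, 0.86 in memory-like CD8 T cells, 1.65 in T cells of uncalled subset and -0.70 in NK cells (edgeR adjusted p = 0.616, 0.324, 0.0275 and 0.0755). Stat4, which carries interleukin-12 signals, had 0.14 in B cells, 0.18 in naive CD4 T cells, 0.43 in memory CD4 T cells and -0.18 in effector CD8 T cells (edgeR adjusted p = 0.271, 0.529, 0.250 and 0.709).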

How the results depend on the processing

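The Ccl5 log2 fold changes kept their sign under every alternative run except in memory-like CD8 T cells, where leaving out 1 library gave -0.07 to 0.18. With 1 library left out, they ranged from 1.03 to 1.25 in B cells, 1.07 to 1.24 in naive CD4 T cells and 0.68 to 1.26 in memory CD4 T cells. In naive CD8 T cells they ranged from 0.56 to 0.78 and in effector CD8 T cells from 0.24 to 0.49. The ranges were 0.62 to 0.99 in T cells of uncalled subset and 0.00 to 0.30 in NK cells. A stricter lineage gate gave 0.42 in naive CD8 T cells. Thinned to 2000 UMIs, the share with a Ccl5 UMI differed by 5.36 percentage points in B, 5.30 in naive CD4 T and 4.32 in naive CD8 T cells, and a stricter gate at 1000 UMIs gave 1.29 in the last. Effector T and NK cells held 27.1% (Con) and 31.8% (T2D) of Ccl5 under the stricter gate, and 58.5% (T2D) without high doublet scores.

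Pathway calls (11) became 17 with no filter, 7 with DESeq2, 5 with the stricter gate and 8 to 11 without 1 library. DESeq2 gave no adjusted p for Ifng in T cells of uncalled subset. T and NK transcripts called higher in B cells (7) became 12 with no filter, 3 with the stricter gate and 1 to 6 without 1 library. Genes called in B cells (197) became 485 with no filter and 45 to 303 without 1 library. Counts were 93 with DESeq2 and 84 to 136 without 1 library in naive CD4 T cells, 50 to 112 in memory CD4 T cells, and 49 with DESeq2 and 63 to 105 in naive CD8 T cells. They were 154 with no filter, 48 with the stricter gate and 44 to 76 in memory-like CD8 T cells, and 57 with no filter, 19 with DESeq2, 14 with the stricter gate, 88 without high doublet scores and 7 to 62 in effector CD8 T cells. They were 113 with DESeq2, 69 with the stricter gate and 96 to 195 in T cells of uncalled subset, and 19 with no filter and 7 to 13 in NK cells. The cause was not tested.

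Log2 shares of cells without 1 library ranged from 1.04 to 1.37 (memory CD4 T), 1.10 to 2.05 (regulatory T), 1.75 to 2.64 (effector CD4 T), 0.41 to 0.61 (memory-like CD8 T), 1.55 to 1.73 (effector CD8 T), 0.98 to 1.34 (effector T without CD4 or CD8), 0.50 to 0.75 (uncalled T), 0.79 to 1.07 (NK) and -0.48 to -0.35 (mature B). The memory-like CD8 call was lost with the stricter gate (0.69, edgeR adjusted p = 0.0565) and without high doublet scores (0.52, 0.0534).

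It is not stated whether replicate numbers pair the libraries, and a check did not settle it. Over all kept cells, same-numbered libraries correlated at -0.247, 0.401 and 0.354 for numbers 1, 2 and 3. In B, naive CD4 T and memory-like CD8 T cells the values lay between -0.016 and 0.07. Con 3 was most like T2D 3 in each of these comparisons, while Con 1 was most like T2D 1 in none. The main fits used no pairing. With the number as a replicate block, genes called were 517 in B, 162 in memory-like CD8 T and 25 in NK cells, and 11 T and NK transcripts were called higher in B cells.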

Other observations

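A few cells outside the T and NK gates held much Ccl5. Among 1140 classical monocytes 9 had 5 or more UMIs, among 1027 neutrophils 7, and among 148 plasmablasts 1, with 40 UMIs. Of 89 eosinophils, 79 had no UMI, and 1 had 174. No platelet-gated particle of 382 had more than 1 UMI. These cells were too few to compare between the groups. High doublet scores were found in 8.95% of classical monocytes and 6.52% of neutrophils, against 5% of all cells. The eosinophil gate had a median of 0 and a mean of 3.12 T marker UMIs per cell. Whether these Ccl5 UMIs came from T or NK cells caught together with them was not tested.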
